A study of Mus musculus with 6 samples.

Results

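The 10 genes that set how a heart takes up and burns glucose were followed in mouse ventricles after myocardial infarction (MI): the glucose transporters Slc2a1 and Slc2a4, the hexokinases Hk1 and Hk2, the glycolytic regulator Pfkfb3, the pyruvate kinase gene Pkm, the pyruvate dehydrogenase kinase gene Pdk4, the lactate dehydrogenase genes Ldha and Ldhb, and the lactate exporter Slc16a3. They were picked by name for these roles and make up 10 of the 26012 genes in the expression data, and all 10 passed the filter on low values. RNA-seq had been done on 6 hearts of male C57BL/6 mice aged 8 weeks. Every mouse had its left anterior descending coronary artery ligated and received 10 μg of mimic into the heart wall, either a control mimic (n = 3 hearts) or miR-19a/19b mimics (n = 3 hearts), and ventricular tissue was collected on day 4. No heart without MI and none without an injected mimic was in the comparison, so the values show miR-19a/19b mimic against control mimic within infarcted tissue. Bulk ventricle holds cardiomyocytes together with fibroblasts, endothelial cells and infiltrating leukocytes, so fewer cells of a type and less RNA per cell cannot be told apart.

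The adult heart draws most of its energy from fatty acids, and it shifts toward glucose under ischemia and after injury. Glucose enters through GLUT1 (Slc2a1), which works without insulin, and GLUT4 (Slc2a4), which insulin moves to the surface of muscle cells and adipocytes. Hexokinases trap it as glucose-6-phosphate, glycolysis turns it to pyruvate, and pyruvate is then either oxidized in mitochondria or reduced to lactate. PDK4 holds pyruvate back from oxidation by phosphorylating pyruvate dehydrogenase. Several of these genes, Slc2a1, Hk2, Pfkfb3, Ldha and Slc16a3 among them, are classical targets of the hypoxia factor HIF1.

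The injected mimics stand for 2 mature microRNAs of one family. Their sequences as RefSeq gives them are shown because the seed, bases 2 to 8 and set in capitals here, decides which transcripts a microRNA can pair with. The letters of the synthetic strands are not given in the sources used here.
mmu-miR-19a-3p: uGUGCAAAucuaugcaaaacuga
mmu-miR-19b-3p: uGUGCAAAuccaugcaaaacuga
Both are 23 bases long and share the seed. In the build GRCm38.p6, miR-19a-3p lies on chromosome 14 (plus strand, 115044048 to 115044070), and miR-19b-3p lies on chromosome 14 (plus strand, 115044358 to 115044380) and again on chromosome X (minus strand, 52741991 to 52742013). The level of the mimics cannot be read from poly-A-selected RNA.

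Matches to this seed (TTTGCACA, TTTGCAC or TTGCACA, on the transcript strand) were found in the longest annotated 3' UTR of 3 of the 10 genes, against 18.4% of the 15392 tested genes with such a UTR. They are shown with the match in capitals and up to 30 bases in all, so that the seed pairing can be read off.
Pfkfb3, bases 459 to 465 of its 3063-base UTR: tcagggacaagTTGCACAttctcatgtggc
Pfkfb3, bases 796 to 802 of the same UTR: ttggctgtttgTTTGCACttttccttcttt
Pdk4, bases 603 to 609 of its 2098-base UTR: agctttttatgTTTGCACtcaaaaagccag
Ldhb, bases 293 to 299 of its 339-base UTR: cttgtttgatgTTTGCACtaggagctcctg
Such a match is a description of the letters, not evidence of binding. Of the 3 genes, only Pfkfb3 had a lower mean in the miR-19a/19b mimic hearts, and the means of Pdk4 and Ldhb were higher there. None of the 3 differences passed the test described next.

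Values below are normalized read counts, each a read count divided by the size factor of its library, and the hearts are given in the order replicate 1, 2 and 3 of each group. Between 19398196 and 23645308 reads per heart fell on genes. One library stood apart: the counts of miR-19a/19b mimic replicate 3 differed from those of its group mates with a chi-square per degree of freedom of 121 and 135, against 10.3 to 26.6 among the control hearts. All 14 cardiomyocyte markers examined were lowest in that heart, with a summed normalized count of 391997 against 1151545 and 1030994 in the other miR-19a/19b mimic hearts and 643866 to 837482 in the control hearts. Its mitochondrially encoded share of reads, 3.18%, was also the lowest, with 6.93% the highest of the 6 hearts. The values of the 10 genes and the counts of calls are therefore given with and without it.

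Across the 10 genes, no difference between the groups was called by limma at an adjusted p under 0.05 (0 of 10, against 0% of the 21126 genes tested), and edgeR's quasi-likelihood test and limma-voom, which called 0% of genes, and DESeq2, which called 0.137%, called none of the 10 either. At an unadjusted p under 0.05 in limma the count was 1 of 10, Slc2a1, lower in the miR-19a/19b mimic hearts, while 4.01% of all tested genes passed that limit, 2.63% lower and 1.39% higher. The median log2 difference of the 10 genes was -0.01, beside 0.0041 for all genes, and it ran from -0.10 without control replicate 2 to 0.12 without miR-19a/19b mimic replicate 3. The lack of calls went together with wide spread for 4 of the genes: between the lowest and the highest heart, Slc2a1, Pfkfb3, Pkm and Ldha differed by at most 1.29-fold, whereas Pdk4 differed by 3.95-fold, Slc2a4 by 3.46-fold, Ldhb by 3.0-fold and Hk2 by 2.39-fold.

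**Figure D1:**
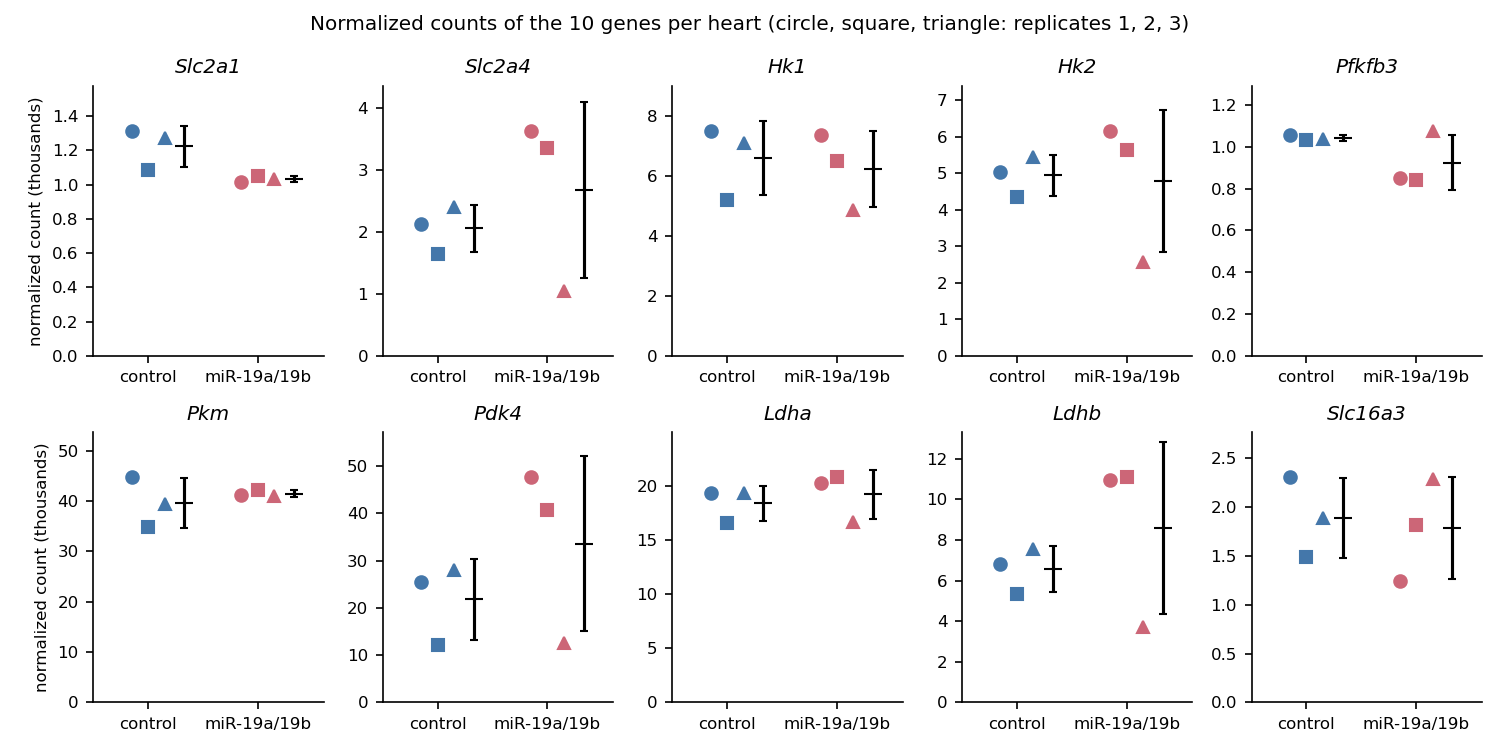
Normalized read count of each of the 10 genes (one panel per gene, vertical axis from 0) in every heart, with control mimic hearts and miR-19a/19b mimic hearts side by side and the group mean and SD (n = 3 hearts). Slc2a1 is the only gene whose groups do not overlap, and in Slc2a4, Hk1, Hk2 and Ldhb miR-19a/19b mimic replicate 3 lies below every other heart.

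Slc2a1 (ENSMUSG00000028645, chromosome 4, plus strand, 119108711 to 119137983) encodes GLUT1, the basal glucose transporter. Its normalized counts were 1313, 1085 and 1269.6 in the control mimic hearts and 1015, 1049.5 and 1035 in the miR-19a/19b mimic hearts. All miR-19a/19b mimic hearts were below all control hearts, and the 3 of them lay close together. The means were 1223 ± 121 and 1033 ± 17.5 (SD, n = 3 hearts each, as for all means below). The log2 difference was -0.24 with a 95% confidence interval from -0.48 to -0.0014, which did not survive adjustment over all genes (adjusted p = 1). Without miR-19a/19b mimic replicate 3 the log2 difference was again -0.24 and was not called (limma, adjusted p = 0.316). Among the tested genes 9.2% had groups that did not overlap, 5.3% with the mimic hearts lower, so Slc2a1 was 1 of 10 members against a similar share of all genes.

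Slc2a4 (ENSMUSG00000018566, chromosome 11, minus strand, 69942539 to 69948188) encodes GLUT4, the insulin-responsive transporter of muscle. The control mimic hearts had 2119, 1645 and 2400.0 normalized counts and the miR-19a/19b mimic hearts 3626, 3348 and 1049. Replicates 1 and 2 of the miR-19a/19b mimic group were above every control heart and replicate 3 was below every one, so the groups overlapped. Means were 2055 ± 381 and 2674 ± 1415, and the log2 difference of 0.20 had a 95% confidence interval from -0.73 to 1.14 (adjusted p = 1). Without replicate 3 the log2 difference was 0.78 ± 0.14 (SE) and was called (limma, adjusted p = 0.021).

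The transporters were also compared within each heart, where the size factor cancels. The ratio of Slc2a1 to Slc2a4 counts was 0.620, 0.660 and 0.529 in the control mimic hearts and 0.280, 0.314 and 0.987 in the miR-19a/19b mimic hearts. GLUT1 reads thus made up less beside GLUT4 in replicates 1 and 2 of the mimic group and more in replicate 3 than in any control heart. The log2 ratio differed by -0.44, which an exact two-sided permutation test over hearts did not separate (p = 0.4, adjusted p over 4 ratios = 1). With 3 hearts against 3 this test cannot give a p below 0.1.

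Hk1 (ENSMUSG00000037012, chromosome 10, minus strand, 62268855 to 62379908), the hexokinase of most tissues, had 7505, 5205 and 7100.2 normalized counts in the control mimic hearts and 7362, 6517 and 4859.8 in the miR-19a/19b mimic hearts. The groups overlapped, replicate 3 of the mimic group being the lowest heart, with means of 6603 ± 1228 and 6246 ± 1273. The log2 difference of -0.08 ± 0.19 (SE) turned to 0.09 without that heart and was called in neither case (limma). Hk2 (ENSMUSG00000000628, chromosome 6, minus strand, 82725025 to 82774454), the insulin-regulated hexokinase of heart and skeletal muscle, had 5029, 4353 and 5450.3 against 6161, 5636 and 2575. As for Slc2a4, replicates 1 and 2 were above and replicate 3 below all control hearts. The Hk2 means were 4944 ± 554 and 4791 ± 1937, with a log2 difference of -0.14 ± 0.29 (SE) that became 0.26 without replicate 3 and was called in neither case (limma, adjusted p = 1 and 0.316). The ratio of Hk2 to Hk1 was 0.670, 0.836 and 0.768 in the control hearts and 0.837, 0.865 and 0.530 in the miR-19a/19b mimic hearts, which overlapped (exact permutation p = 1).

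Pfkfb3 (ENSMUSG00000026773, chromosome 2, minus strand, 11471433 to 11554077) makes fructose-2,6-bisphosphate, the strongest activator of phosphofructokinase. It had 1057, 1033 and 1038 normalized counts in the control mimic hearts and 852, 842 and 1075 in the miR-19a/19b mimic hearts. The control hearts were nearly level (1042 ± 12.6), replicates 1 and 2 of the mimic group were below them and replicate 3 just above (923 ± 132). The log2 difference was -0.18 ± 0.12 (SE) and was -0.30 without replicate 3, neither of them called (limma, adjusted p = 1 and 0.114).

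Pkm (ENSMUSG00000032294, chromosome 9, plus strand, 59656368 to 59679375) makes the pyruvate kinase that closes glycolysis. Its normalized counts were 44710.3, 34829.6 and 39428 in the control mimic hearts and 41139.6, 42275 and 41125 in the miR-19a/19b mimic hearts. The control hearts spanned the mimic hearts on both sides, with means of 39656 ± 4944 and 41513 ± 659.7. The log2 difference was 0.07 ± 0.19 (SE), and 0.08 ± 0.16 (SE) without miR-19a/19b mimic replicate 3, called in neither case (limma). Counts per gene do not separate the M1 and M2 forms of the enzyme, which come from one gene by alternative splicing, so nothing can be said of the switch between them. The pseudogene Gm6560 is 98.4% identical to a Pkm transcript over 1593 bases and carried a mean of 73.3 normalized counts.

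Pdk4 (ENSMUSG00000019577, chromosome 6, minus strand, 5483351 to 5496309), the kinase that fasting and fatty acids induce in heart, spread most of the 10 genes. The control mimic hearts had 25430.5, 12044 and 28023 normalized counts and the miR-19a/19b mimic hearts 47580.0, 40614 and 12617. Replicates 1 and 2 of the mimic group were above all other hearts, and replicate 3 was close to the lowest control heart. Means were 21832.5 ± 8576 and 33604 ± 18506, and the log2 difference of 0.50 had a 95% confidence interval from -0.64 to 1.64 (limma, adjusted p = 1). Without replicate 3 it was 1.10 ± 0.29 (SE), which was not called either (limma, adjusted p = 0.0762).

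Ldha and Ldhb encode the subunits of lactate dehydrogenase, the A subunit ruling in tissues that export lactate and the B subunit in the oxidative heart. Ldha (ENSMUSG00000063229, chromosome 7, plus strand, 46841475 to 46855627) had 19331, 16504 and 19287 normalized counts in the control mimic hearts and 20236, 20745 and 16631 in the miR-19a/19b mimic hearts. The groups overlapped, at 18374 ± 1619.7 and 19204 ± 2243. The log2 difference of Ldha was 0.06 ± 0.16 (SE). Without miR-19a/19b mimic replicate 3 it was 0.16 ± 0.13 (SE), and it was called in neither case (limma). Ldhb (ENSMUSG00000030246, chromosome 6, minus strand, 142490249 to 142507957) had 6830.4, 5349 and 7549.5 against 10967, 11071 and 3689. Here too replicates 1 and 2 were above and replicate 3 below every control heart, with means of 6576 ± 1122 and 8575 ± 4232. The log2 difference of Ldhb was 0.23 ± 0.38 (SE), and without replicate 3 it was 0.76 ± 0.14 (SE) and called (limma, adjusted p = 0.022). The transcript Gm5514, 98.0% identical to Ldhb over 1002 bases, had a mean of 13.9 normalized counts. Of 4 partial copies of Ldha, 95.5% to 95.9% identical over 253 to 1000 of its 1815 bases, only 1 had a value in the expression data, a mean of 0.795.

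Over the hearts, the ratio of Ldha to Ldhb counts ran in nearly the reverse order of Ldhb. Only miR-19a/19b mimic replicates 1 and 2 were exchanged. The ratios here are of RNA counts not scaled to gene length, and they do not give the proportions of the subunit proteins. The Ldha to Ldhb ratio was 2.83, 3.09 and 2.55 in the control mimic hearts and 1.85, 1.87 and 4.51 in the miR-19a/19b mimic hearts, and the log2 ratio differed by -0.17 (exact permutation p = 0.8, adjusted p = 1). The ratio of Ldha to Pdk4 counts was 0.760, 1.37 and 0.688 against 0.425, 0.511 and 1.32 (log2 difference -0.44, exact permutation p = 0.5, adjusted p = 1). In both ratios replicates 1 and 2 of the mimic group were below all control hearts, while replicate 3 was the highest heart for Ldha to Ldhb and the next to highest for Ldha to Pdk4.

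Slc16a3 (ENSMUSG00000025161, chromosome 11, plus strand, 120948480 to 120960868) encodes MCT4, which exports lactate from glycolytic cells. Its normalized counts were 2304, 1485 and 1889.95 in the control mimic hearts and 1242, 1823 and 2286 in the miR-19a/19b mimic hearts. The groups overlapped, with the lowest and nearly the highest value in the mimic group. Means were 1893 ± 409.5 and 1783 ± 523, and the log2 difference was -0.11 ± 0.23 (SE). Without miR-19a/19b mimic replicate 3 it was -0.31 ± 0.18 (SE) and was not called (limma, adjusted p = 0.501). Unlike Slc2a4, Hk2, Ldhb and Pdk4, Slc16a3 was highest within the mimic group in replicate 3.

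**Figure D2:**
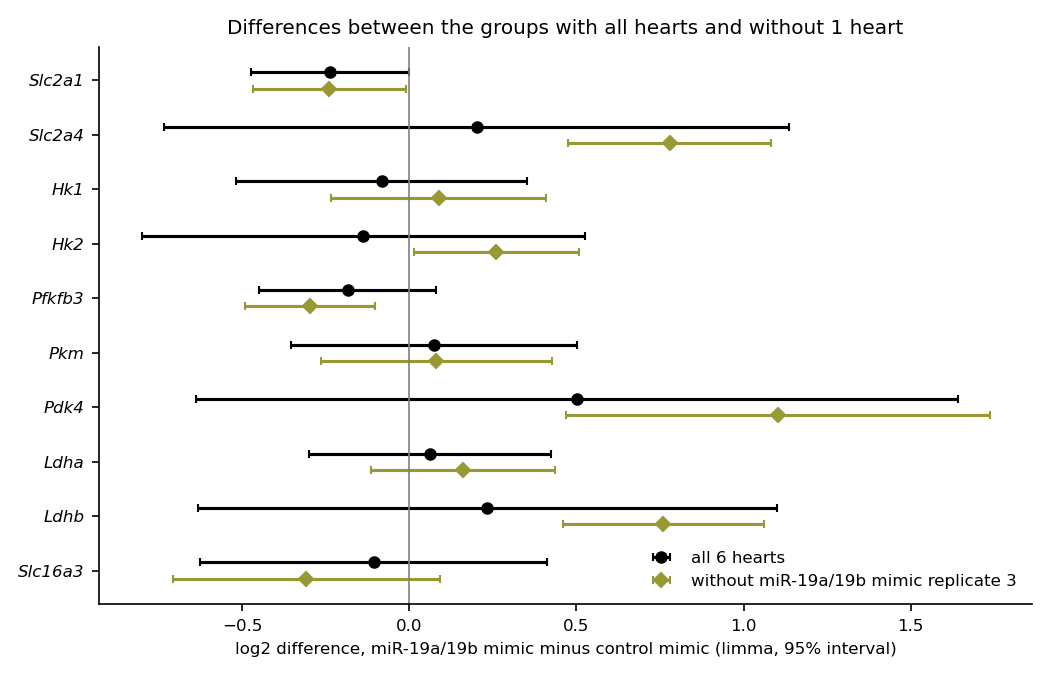
Log2 difference (miR-19a/19b mimic minus control mimic) of each of the 10 genes with its 95% confidence interval from limma, with all 6 hearts and without miR-19a/19b mimic replicate 3. With all hearts the Slc2a1 interval alone excludes 0, and without that heart Pdk4 lies at 1.10, Slc2a4 at 0.78 and Ldhb at 0.76.

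Without miR-19a/19b mimic replicate 3, 2 of the 10 genes were called, Slc2a4 and Ldhb, both higher, against 2.58% of the 21202 genes tested (1.81% higher and 0.774% lower). At an unadjusted p under 0.05 the count was 6 of 10, against 14.5% of all genes. Of these, 4 were higher and 2 lower, against 8.39% and 6.08% of all genes. The left-out heart was chosen after its values were known, so these counts describe how far the result hangs on it. With any other heart left out, 0 of 10 and 0% of all genes were called (limma).

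Compared per length, as RPKM (reads scaled to gene length and to the reads on genes), the order of the levels in the control mimic hearts ran from Pkm at 712 ± 80.4 through Pdk4 at 288 ± 107, Ldha at 288 ± 18.0 and Ldhb at 195 ± 27.3 to Hk2 at 38.6 ± 3.10, Hk1 at 36.1 ± 5.94 and Slc2a4 at 27.5 ± 4.26. Slc16a3 at 16.6 ± 3.38, Slc2a1 at 16.3 ± 1.26 and Pfkfb3 at 6.44 ± 0.204 were lowest. Neighbouring means were no further apart than the spread over hearts for Pdk4 with Ldha and Ldhb, for Hk2 with Hk1, and for Slc16a3 with Slc2a1. In the miR-19a/19b mimic hearts, Slc2a4 (34.5 ± 16.9) stood between Hk2 (36.2 ± 12.8) and Hk1 (33.4 ± 4.59), all within their spread. Mean GLUT4 message was thus above mean GLUT1 message per length in both groups, and the muscle transporter, not the basal one, was the more variable of the pair.

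The genes that varied most between hearts did so in nearly the same order. For Slc2a4 and Hk2 the hearts ranked, from low to high, miR-19a/19b mimic replicate 3, control replicates 2, 1 and 3, then miR-19a/19b mimic replicates 2 and 1. Ldhb followed this order with the top pair exchanged, and Pdk4 with the bottom pair exchanged. The summed cardiomyocyte markers ranked exactly as Slc2a4 and Hk2. Those sums overlapped between the groups, and with all hearts none of the 14 markers was called (limma), while without replicate 3 of the mimic group 5 of 14 were called higher.

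**Figure D3:**
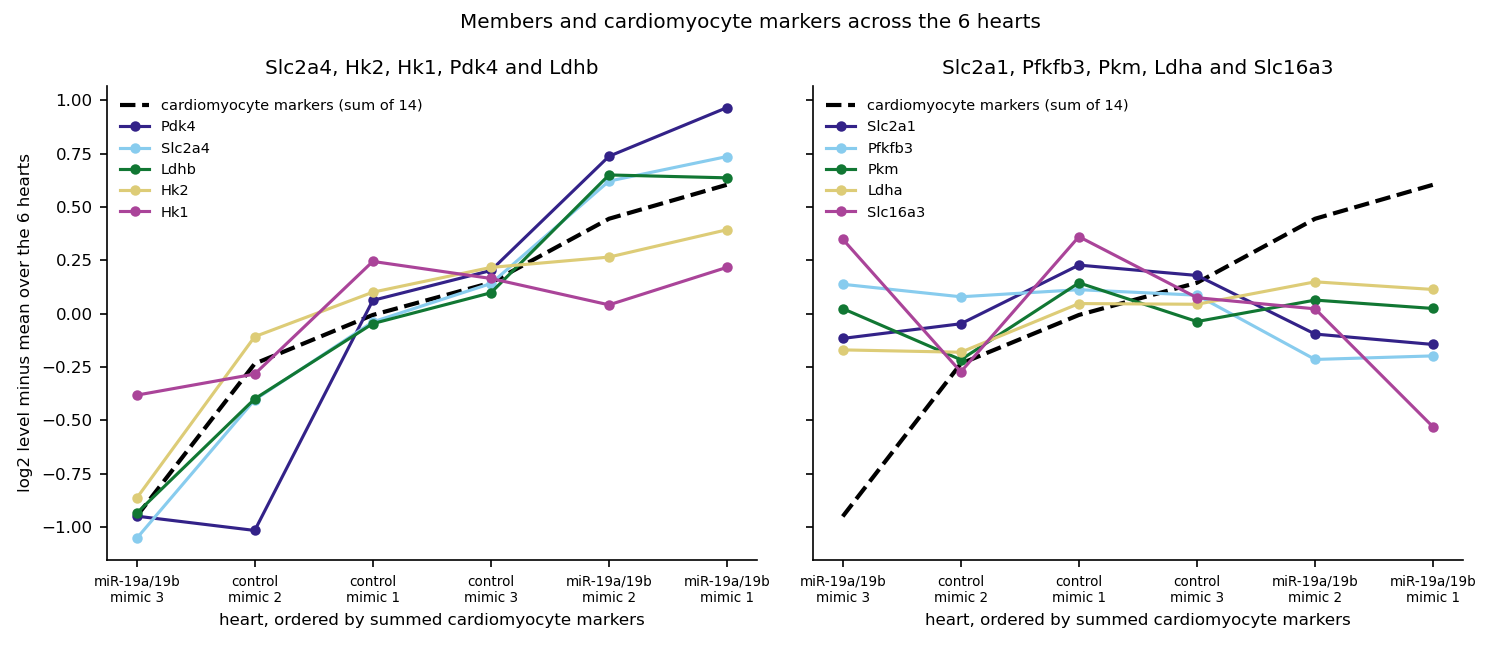
Log2 normalized count of each gene in each heart relative to its own mean over the 6 hearts, beside the summed cardiomyocyte markers. The lines for Slc2a4, Hk2, Ldhb and Pdk4 follow the marker sum, lowest or next to lowest in miR-19a/19b mimic replicate 3 and highest in replicates 1 and 2. Slc2a1, Pfkfb3, Pkm and Ldha stay within 1.29-fold. Hk1 (1.54-fold) and Slc16a3 (1.86-fold) belong to neither set, and both are highest in control replicate 1.

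Set against 1000 summed cardiomyocyte-marker counts of the same heart, Slc2a4 was 2.81, 2.56 and 2.87 in the control mimic hearts and 3.15, 3.25 and 2.68 in the miR-19a/19b mimic hearts. On this scale its spread over the 6 hearts fell from 3.46-fold to 1.27-fold, that of Hk2 to 1.26-fold, that of Ldhb to 1.29-fold and that of Pdk4 to 2.21-fold. The other 6 genes spread more on it than before, from 1.96-fold for Hk1 to 5.41-fold for Slc16a3. Ldhb was 9.06, 8.31 and 9.02 against 9.52, 10.7 and 9.41, so that its groups did not overlap, with a log2 difference of 0.17 (exact permutation p = 0.1, the smallest possible, and adjusted p = 0.75 over the 10 genes). Hk2 was 6.67, 6.76 and 6.51 against 5.35, 5.47 and 6.57, a log2 difference of -0.20 (exact permutation p = 0.2). Pdk4 was 33.7, 18.7 and 33.5 against 41.3, 39.4 and 32.2, a log2 difference of 0.44 (exact permutation p = 0.3). No adjusted p on this scale was under 0.75. The part of the cardiomyocyte markers in the member differences was not tested.

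Markers of other cells that use these genes were read in the same hearts. Summed macrophage markers ran from 91209 to 106832 normalized counts in the control mimic hearts and from 75606 to 114024 in the miR-19a/19b mimic hearts, and neutrophil markers from 1570.4 to 1855 and from 743 to 2418, each highest in replicate 3 of the mimic group and lowest in its replicate 1. Slc16a3 ranked the 3 mimic hearts as these sums did, but not the control hearts, where it was highest in replicate 1 and lowest in replicate 2. In the control hearts the macrophage sum was lowest in replicate 1 and highest in replicate 2. The neutrophil sum there was highest in replicate 1 and lowest in replicate 3. Fibroblast markers ran from 745795 to 923771 and from 618523 to 1010712, and endothelial markers from 29069 to 36370.2 and from 31535 to 33125. Replicate 1 of the mimic group held 4929.8 summed normalized counts of skeletal muscle markers, and no other heart held over 565. Adipocyte markers, with Lep at 0 in every heart, ran from 284 to 423 and from 223 to 539. Most of that sum was Cidea, from 280 to 416 and from 220 to 533, while Adipoq reached at most 5.53. T cell markers ran from 260 to 367 and from 198 to 224 and were, like Slc2a1, lower in every mimic heart than in any control heart, and erythrocyte markers ran from 3080.0 to 4141 and from 1999 to 3931. The part of these cells in the member values was not tested.

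Around the 10 genes, 7 lists of 128 pathway genes were read in the same fit, and 125 were tested. None was called (limma, and none with DESeq2, edgeR or limma-voom), and 4 had an unadjusted p under 0.05, all higher, which is 3.2% beside 4.01% of all genes. Of the 125, 83 were above 0 and 42 below, with a median log2 difference of 0.08. This direction turned with single hearts left out: 56 were above 0 without miR-19a/19b mimic replicate 1 (median -0.03) and 58 without its replicate 2 (median -0.02), while the median was 0.0033 without control replicate 2 and 0.31 with 91 above 0 without miR-19a/19b mimic replicate 3. The list medians below are for all 6 hearts.

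Upstream of the hexokinases, the other glucose transporters had 7 of 11 tested genes below 0 and a median of -0.14, which lay between -0.18 and -0.057 with 1 heart left out. Slc2a3, which encodes GLUT3, had 214 ± 5.33 normalized counts in the control mimic hearts and 194 ± 46.6 in the miR-19a/19b mimic hearts. Slc2a8 had the lowest p but one of this list (log2 difference 0.20), behind Slc5a2, which had only 3.34 and 1.22 mean normalized counts.

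Among the other glycolytic enzymes, 12 of 22 were above 0 and the median was 0.04, below 0 without control replicate 2 (-0.044) and without miR-19a/19b mimic replicate 1 (-0.056) or 2 (-0.052), and 0.12 without its replicate 3. Pfkfb1, the liver and muscle relative of Pfkfb3, had 84.0, 78.1 and 103.7 normalized counts in the control hearts and 139.9, 112.4 and 111.5 in the miR-19a/19b mimic hearts, without overlap (log2 difference 0.45 ± 0.18, SE), and it was not called. Pfkfb2, the heart form, was at 439 ± 28.2 and 563 ± 188. Pfkm, the muscle phosphofructokinase, was at 7084 ± 1302 and 9028 ± 4233, Pfkp, the platelet form, had a log2 difference of -0.30 with all hearts and -0.13 with replicate 3 of the mimic group left out, and Gapdh was at 57692 ± 6512 and 59953 ± 11214.

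At the entry of pyruvate into mitochondria and the pyruvate dehydrogenase complex, 11 of 13 genes were above 0 with a median of 0.11. Without miR-19a/19b mimic replicate 1 only 4 of 13 were above 0 (median -0.036) and without its replicate 2 only 6 (median -0.037). The median was 0.0537 without control replicate 2, 0.23 without control replicate 3 and 0.45 with replicate 3 of the mimic group left out. Pdk2, the most widely expressed of the kinases, was at 2660 ± 667 in control and 3597 ± 1719 in miR-19a/19b mimic hearts, Pdk1 at 2449 ± 242 and 2357 ± 695, and Pdk3 at 315 ± 40.0 and 329 ± 68.8. The opposing phosphatases Pdp1 and Pdp2 had log2 differences of 0.18 and 0.23, or 0.31 and 0.52 without miR-19a/19b mimic replicate 3. Lactate handling beyond the members had a median of 0.06 over 6 genes (-0.049 without miR-19a/19b mimic replicate 2 and 0.37 without its replicate 3), with the lactate importer Slc16a1 (MCT1) at 2216 ± 175 and 2508 ± 1078, Slc16a7 at -0.21 and Slc16a8 at 0.41 on the log2 scale. Glycogen genes had a median of 0.02 over 15 genes (-0.13 without miR-19a/19b mimic replicate 1 and 0.29 without its replicate 3). Their lowest p belonged to Phkg1, a phosphorylase kinase subunit, and Gyg, the glycogenin gene, whose log2 differences were 0.72 and -0.27, and 1.1 and -0.086 without replicate 3.

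The regulators of the pathway had a median of 0.03 over 32 genes (-0.034 without miR-19a/19b mimic replicate 1 and 0.115 without its replicate 3). Hif1a, the hypoxia factor, was at 3458 ± 227 normalized counts in the control and 3141 ± 27.6 in the miR-19a/19b mimic hearts, without overlap and with a log2 difference of -0.14 that was not called. Its RNA level does not report its protein, which oxygen controls by degradation. Egln3, a prolyl hydroxylase that oxygen deprivation induces, had a log2 difference of -0.43, or -0.12 with replicate 3 of the mimic group left out, and that heart had 629 normalized counts against 1174 and 1223 in its group mates. Ppargc1a, the coactivator of mitochondrial genes, had 1039, 741 and 1121 normalized counts against 3133, 2980 and 644, higher than every control heart in 2 mimic hearts and lower in replicate 3 (log2 difference 0.93 ± 0.53, SE). Ppara, the fatty acid sensor that induces Pdk4, was at 211 ± 44.8 and 298 ± 165, and Txnip, a glucose-induced brake on glucose uptake, at 7955 ± 730 and 9028 ± 2612.

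Fatty acid use, the competitor of glucose, had 25 of 26 genes above 0 and a median log2 difference of 0.32, beside 0.0041 over all genes, and 3 of the 26 were higher at an unadjusted p under 0.05, against 1.39% of all genes. The median was 0.0849 without miR-19a/19b mimic replicate 1, 0.12 without its replicate 2, 0.15 without control replicate 2 and 0.76 with replicate 3 of the mimic group left out. The cardiomyocyte markers had a median of 0.11 with all hearts and 0.59 without that last heart, and their part in the fatty acid values was not tested. Acot1, a thioesterase that releases fatty acids from coenzyme A, had 187, 161 and 173 normalized counts in the control mimic hearts and 310, 365 and 233 in the miR-19a/19b mimic hearts, without overlap (log2 difference 0.78 ± 0.17, SE, limma adjusted p = 0.791). Its near relative Acot2 may share its reads. Slc27a1, a fatty acid importer, had 3270, 3078 and 3189 against 4582, 4436 and 3402, again without overlap (log2 difference 0.37 ± 0.13, SE).

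**Figure D4:**
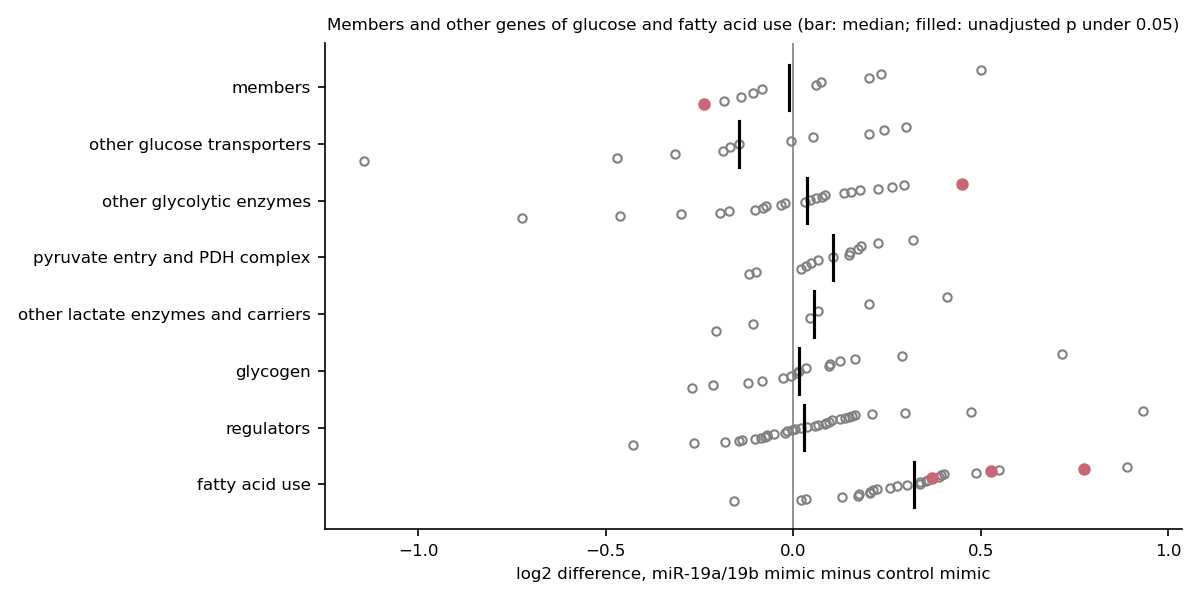
Log2 difference (miR-19a/19b mimic minus control mimic, all 6 hearts) of every tested gene of the 7 pathway lists and of the 10 genes, one row per list, with the list's median marked. The vertical line is at 0, and the median of all genes, not drawn, was 0.0041. The fatty acid list lies highest, with a median of 0.32 and 1 gene below 0, and the other glucose transporters lowest, at -0.14. That order does not hold at the low end without control replicate 2 or without miR-19a/19b mimic replicate 1 or 2.

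Without miR-19a/19b mimic replicate 3, 34 of the 125 tested pathway genes were called higher and 0 lower (limma), against 1.81% and 0.774% of all genes. They were 16 of 26 fatty acid genes, 6 of 13 at pyruvate entry, 5 of 22 glycolytic enzymes, 4 of 32 regulators, 2 glycogen genes, 1 lactate gene and 0 glucose transporters. Ppargc1a (limma, adjusted p = 0.0025), Acot1 (0.0098), Pfkfb2 (0.0197), Slc27a1 (0.021), Ppara (0.0241), Slc16a1 (0.0286), Pfkm (0.0345) and Pdk2 (0.0369) were among them. In the same fit 5 of the 14 cardiomyocyte markers were called higher and 13 of 14 were above 0, while the stress-induced atrial peptide gene Nppa went the other way, at -0.66 (-0.94 with all hearts). The part of the markers in these calls was not tested.

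Since several of the 10 genes are textbook HIF1 targets, the core of the hypoxia response element (ACGTG or GCGTG, both strands, a palindromic CACGTG being read on both) was searched in the RefSeq promoters, 300 bases that include the start, build GRCm38.p6. Promoters were found for 9 of the 10 genes. The core was present in 11 of their 13 promoters and in 43.8% of all 32851 promoters. Examples with the core in capitals are shown for the genes of basal uptake and lactate, each on the strand of its gene.
Slc2a1, chr4:119108699-119108723: cccgccccggACGTGctccccaggc
Ldha, chr7:46845650-46845674: gtcgcagcacACGTGgagccactct
Ldha, chr7:46845747-46845771: cccagcctacACGTGggttcccgca
Slc16a3, chr11:120949030-120949054: ggcagcggtgACGTGcgcgggggac
Slc16a3, chr11:120949043-120949067: tgcgcgggggACGTGccgcgcgacg
These are matches of 5 letters and not measured binding sites. As given above, of these genes Slc2a1 had non-overlapping groups and Ldha and Slc16a3 did not.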

How the data were processed

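Poly-A RNA of 6 ventricles was sequenced (3 control mimic, 3 miR-19a/19b mimic, from the labels). Per the submitters' notes, the authors aligned reads with STAR 2.5.1b, counted them per gene with HTSeq 0.6.0 and used DESeq2 1.10.1, while the study's methods name edgeR for its differential expression. The deposited signal is a normalized count per gene and heart, a count divided by a size factor (0.905 to 1.16). Whole reads were recovered for 100% of values (tolerance 0.02 reads). Deposited columns with the authors' comparison of the groups (fold changes, p-values) were not used. The notes name mm9, whereas all 10 genes and 82.7% of 25884 shared genes have the start and end of GRCm38 (GENCODE M21), so coordinates are given as in the files and sequences come from GRCm38. Strand use in counting is not given in the sources used here. Genes that overlap Slc2a1, Hk1, Hk2 and Pfkfb3 had means of at most 11.0 normalized counts.

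Genes with a mean of at least 1 (21126 of 26012) were tested with limma 3.58.1 (R 4.3.3, trended prior) on log2(normalized count + 1), where a fold change of a low gene is understated, and adjusted by Benjamini-Hochberg over all of them. A call is an adjusted p under 0.05. Alternatives used DESeq2 1.42.0, edgeR 4.0.16 and limma-voom on recovered reads, other scalings, filters and pseudocounts, a replicate block, and each heart left out. RPKM were computed here from recovered reads and the file's gene length. Ratios used exact two-sided permutation tests. Scripts were tested on simulated data.

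The members and lists were chosen with earlier results of these data known. Named pathway genes are those with the lowest and next lowest p of each list and 12 fixed genes. An item of these lists is not reported here by name. Scaling to cardiomyocyte markers was added after seeing the data. Hearts are biological replicates per the study's methods.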

Additional observations from a re-analysis of the deposited data

How the results depend on the processing

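Under 9 alternatives that kept all hearts, the 10 log2 differences kept direction and side of the threshold in 90 of 90 cases. The alternatives without a filter, with the stricter filter and with the replicate block use the same values, so their direction could not turn. Apart from DESeq2 (0.137%), the alternatives called 0% of all genes, so a change of side was hardly possible. The count at an unadjusted p under 0.05 was 0 of 10 with DESeq2, total-read scaling, a pseudocount of 0.1 and the replicate block. Deviations from the group mean correlated at 0.056, -0.335 and -0.449 for same-numbered hearts and from -0.44 to 0.49 for unlike-numbered ones. Deviations within a group of 3 hearts are not independent, so these correlations cannot show whether the numbers are pairs. Numbers were not taken as pairs, and the block gave 0 calls among members and pathway genes.

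Leaving out 1 heart at a time, calls ran from 0 to 2 for members and 0 to 34 for pathway genes, and unadjusted counts from 0 to 6 and 1 to 74, the highest always without miR-19a/19b mimic replicate 3. Log2 differences ran from -0.32 to -0.18 for Slc2a1, -0.12 to 0.78 for Slc2a4, -0.25 to 0.087 for Hk1, -0.37 to 0.26 for Hk2, -0.30 to -0.12 for Pfkfb3, -0.0165 to 0.16 for Pkm, 0.12 to 1.10 for Pdk4, -0.0148 to 0.16 for Ldha, -0.0334 to 0.76 for Ldhb and -0.31 to 0.13 for Slc16a3. Log2 ratios ran from -1.02 to -0.11 (Slc2a1 to Slc2a4), -0.18 to 0.17 (Hk2 to Hk1), -0.60 to 0.0462 (Ldha to Ldhb) and -0.94 to -0.13 (Ldha to Pdk4). Relative to cardiomyocyte markers, chosen after seeing the data, Ldha was -0.0041.

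By the longest transcript, control levels were 71.9 RPKM for Hk1, 41.8 for Hk2, 10.1 for Pfkfb3, 472 for Ldha, 235 for Ldhb and 20.4 for Slc16a3, so that Hk1 passed Hk2 and Ldha passed Pdk4. The intervals given are not adjusted over genes, whereas a call needed an adjusted p under 0.05. Slc2a1, for example, had an interval from -0.48 to -0.0014 and was not called. Each group had 3 hearts, and the smallest difference that could have been called was not tested.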

Other observations

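The genes whose profile over the 6 hearts lay nearest to that of each member were read among the 11609 genes with a mean of at least 100 normalized counts, by the root mean square difference of centred log2 values. Nearest to Slc2a4 were Txlnb (0.0301) and Atp2a2 (0.0421), the latter the calcium pump of the sarcoplasmic reticulum, and Atp2a2 was also nearest to Ldhb (0.0411). Nearest to Hk2 was Myo18b (0.0326), and nearest to Pdk4 was Wnk2 (0.0982). Nearest to Pfkfb3 was Tram2 (0.0162) and nearest to Slc2a1 was Pter (0.0462). Among the members themselves the nearest pair was Ldhb with Slc2a4 (0.0665), whose root mean square spreads around their own means were 0.559 and 0.608. The next was Ldha with Pkm (0.108). Their own spreads were only 0.130 and 0.111, so that distance is near what flat profiles would give. The points are 6 hearts that share their libraries with every other value given here.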
